A study of Mus musculus with 22 samples.

Results

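Muscle stem cells, also called satellite cells, taken 3 days after a cardiotoxin injury were compared with those taken 1 day after it. The comparison holds 16 of the 22 libraries of the study: all 8 labelled as 3 days after injury and all 8 labelled as 1 day after injury, chosen by title alone. Each day has 4 libraries from mice injured at ZT4 and 4 from mice injured at ZT16, where ZT (zeitgeber time) counts hours from lights on. All groups were hindlimb cells of Pax7-zsgreen mice, lightly fixed in the animal, and were sorted on the green reporter, so the level of Pax7 itself is not independent of the sort. Cardiotoxin is a snake venom toxin that kills muscle fibres and spares most stem cells. The 6 uninjured libraries (3 per time) have the same genotype and fixation but no toxin, and are given here only as levels. Full-length cDNA was made with a SMART-seq kit and sequenced, and reads were counted per transcript. The labels used here give no age or sex, do not say how many mice went into a library, and do not say whether replicates are separate animals, so that p-values measure the spread between these libraries.

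Satellite cells rest outside the cell cycle under the sheath of a muscle fibre and are marked by the transcription factor Pax7. After injury they enter the cell cycle with high levels of the myogenic regulator Myod1, divide as myoblasts, and then either return to rest or turn on Myog (myogenin), leave the cycle and fuse into new fibres. Fusion needs the membrane proteins myomaker (Mymk) and myomixer (Mymx), and new fibres first build an embryonic form of the contractile machinery. Dead fibre material is removed meanwhile by neutrophils and then by macrophages, which are drawn in by chemokines that the muscle itself also makes.

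The 16 libraries held 6302528 to 9751536 expected counts, RSEM's estimate of reads per transcript, here summed per gene. Genes detected numbered 17074 to 23089 on day 3 and 16958 to 17349 on day 1. Day 3 ZT4 replicates 1 and 2 and day 3 ZT16 replicates 3 and 4 stood apart with 18770 to 23089 genes, against 17074 to 17984 in the other 4 day 3 libraries. The first principal component held 65.6% of the variance and separated the days, while day 1 ZT16 replicate 4 lay apart from the rest on the second component. Of 43430 genes, 13952 had enough counts to be tested. Markers of other cells were present in the sort and moved between the days: macrophage and monocyte markers summed to 931 to 1873 CPM (counts scaled to the size of the library) on day 3 and 1635 to 4998 CPM on day 1, and neutrophil markers to 7.45 to 17.3 CPM on day 3 and 31.0 to 315 CPM on day 1. None of the 12 T, B and NK cell markers had enough counts to be tested, and Ncr1, which marks NK cells, was at 0 in all 16 libraries.

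Day 3 cells differed from day 1 cells across most of the measured transcriptome. By edgeR's quasi-likelihood test, with Benjamini-Hochberg adjustment over all tested genes and a threshold of 0.05, 8771 of 13952 genes (62.9%) were called. Of these, 4356 were higher on day 3 (31.2%) and 4415 lower (31.6%). At least 2-fold changes were called for 1415 genes higher (10.1%) and 1603 lower (11.5%), and the CPM ranges of the 8 and 8 libraries did not overlap for 3908 tested genes (28.0%). Because so many genes were called, the counts of each gene group below are read against these shares. Without the 4 day 3 libraries that stood apart, 7455 genes were called, of which 7190 were also called with all 16 libraries and had the same sign. Fold changes are log2 ratios of day 3 over day 1 with their standard errors (SE) from the same fit, and levels are CPM, given as the lowest, the median and the highest library of a day. In bulk RNA, fewer cells of a type and less RNA per cell cannot be told apart. A check with markers of cell state gave the following: of 8 genes of differentiating muscle cells, 7 were higher on day 3 (Myog, Mymk, Mymx, Myh3, Actc1, Tnnt2 and Cdkn1a) and Ckm was lower. Of 6 genes of activated stem cells, Pax7, Myf5, Myod1 and Mcm3 were lower on day 3, while Mki67 and Top2a were higher (both markers of dividing cells).

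The 12 largest rises included genes of muscle cell differentiation. Myog measured 1103, 1616 and 2202 CPM on day 3, against 3.12, 8.51 and 25.9 CPM on day 1 and 99.1 to 545 CPM in uninjured cells. Every day 3 library was above every day 1 library and every uninjured library, and every uninjured library was above every day 1 library. The log2 fold change of Myog was 7.49 ± 0.30 (SE; edgeR adjusted p = 1.37e-10). Myh3, the embryonic myosin heavy chain, measured 134, 308 and 399 CPM on day 3 and 0, 0.194 and 0.637 CPM on day 1, a log2 fold change of 10.70 ± 0.37. Mymk and Mymx rose by 8.93 ± 0.32 and 9.53 ± 0.30. Actc1 (cardiac alpha-actin, the form of early muscle), Tnni1 (slow troponin I) and Chrng (the fetal acetylcholine receptor subunit gamma) rose by 7.41 ± 0.28, 6.66 ± 0.26 and 7.11 ± 0.22. For all of these genes the days did not overlap.

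Igfbp2, which binds insulin-like growth factors, had the smallest standard error of the 12 largest rises. It measured 58.5, 73.9 and 85.5 CPM on day 3 and 0.135, 0.435 and 1.8 CPM on day 1, with a log2 fold change of 6.83 ± 0.20 (edgeR adjusted p = 1.09e-16), and its highest uninjured value was 0.146 CPM. Smim5, Dynap and Bcas1 rose by 7.57 ± 0.38, 7.01 ± 0.39 and 6.92 ± 0.52. Their day 1 medians were all 0 CPM, so that these fold changes rest on few day 1 counts. R3hdml measured 14.3 to 39.6 CPM on day 3 and was at 0 in 6 of the 8 day 1 libraries, with 0.126 and 0.150 CPM in the others, and no fold is given for it.

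The 12 largest falls included genes of inflammation. S100a9 and S100a8, the calcium-binding proteins that fill neutrophils, fell by 7.52 ± 0.49 and 6.50 ± 0.46. S100a9 measured 0, 0.116 and 0.469 CPM on day 3 and 5.15, 15.3 and 68.3 CPM on day 1. Ppbp and Cxcl3, both chemokines that attract neutrophils, fell by 7.42 ± 0.29 and 6.93 ± 0.30, and Serpinb2, an inhibitor of urokinase, by 7.26 ± 0.37. Arg1, the arginase of repair macrophages, measured 0, 0.541 and 1.47 CPM on day 3, against 35.8, 70.5 and 187 CPM on day 1, and fell by 7.11 ± 0.36. Il1f9 (interleukin 36 gamma) fell by 5.91 ± 0.72 and Ltb4r1 (the leukotriene B4 receptor of leukocytes) by 5.66 ± 0.40. These genes were near 0 in uninjured cells as well. The highest values there were 2.16 CPM for S100a8, 0.764 CPM for S100a9, 1.61 CPM for Arg1 and 1.27 CPM for Ltb4r1. The sums of neutrophil and macrophage markers given above moved with them, and their part in these falls was not tested.

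Other genes with the largest falls were present in resting cells. Cyp26a1, which breaks down retinoic acid, fell by 6.41 ± 0.52, Alpl (tissue-nonspecific alkaline phosphatase) by 5.66 ± 0.32 and the unnamed gene Gm2564 by 5.88 ± 0.38. None of these overlapped between the days.

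**Figure D1:**
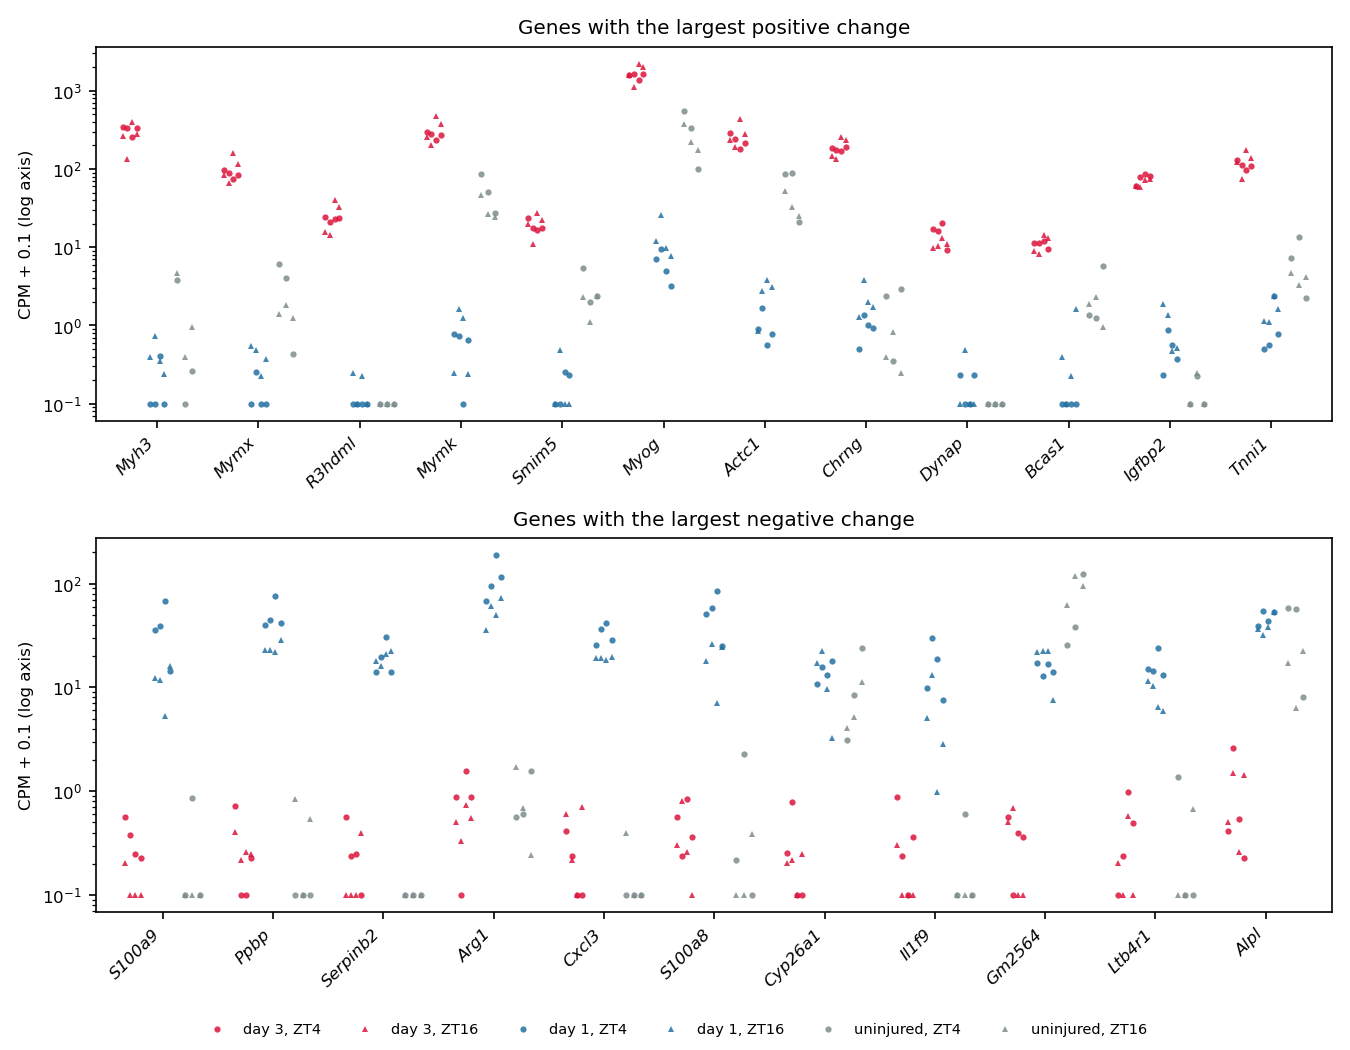
CPM of the 12 genes with the largest rise (top) and 11 of the 12 with the largest fall (bottom) among called genes that reached 10 CPM and did not overlap between the days. Each point is 1 library, in red for day 3, blue for day 1 and grey for uninjured, circles for ZT4 and triangles for ZT16, on a log axis of CPM + 0.1. The day 3 points of Myog lie between 1103 and 2202 CPM, above the uninjured points, which in turn lie above the day 1 points at 3.12 to 25.9 CPM.

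Among the 33 pathway lists, cell type markers left aside, the highest medians were those of the contractile apparatus and the lowest those of chemokines and immediate early genes. The median log2 fold change was 2.72 over 39 sarcomere genes, 2.19 over 22 genes of excitation-contraction coupling, 1.58 over 11 acetylcholine receptor and synapse genes and 1.32 over 29 mitosis genes. At the other end it was -2.85 over 22 chemokines and cytokines, -1.65 over 19 immediate early genes, -1.53 over 20 genes of stem cell identity and quiescence and -1.36 over 19 circadian clock genes. Over all tested genes it was -0.0047.

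**Figure D2:**
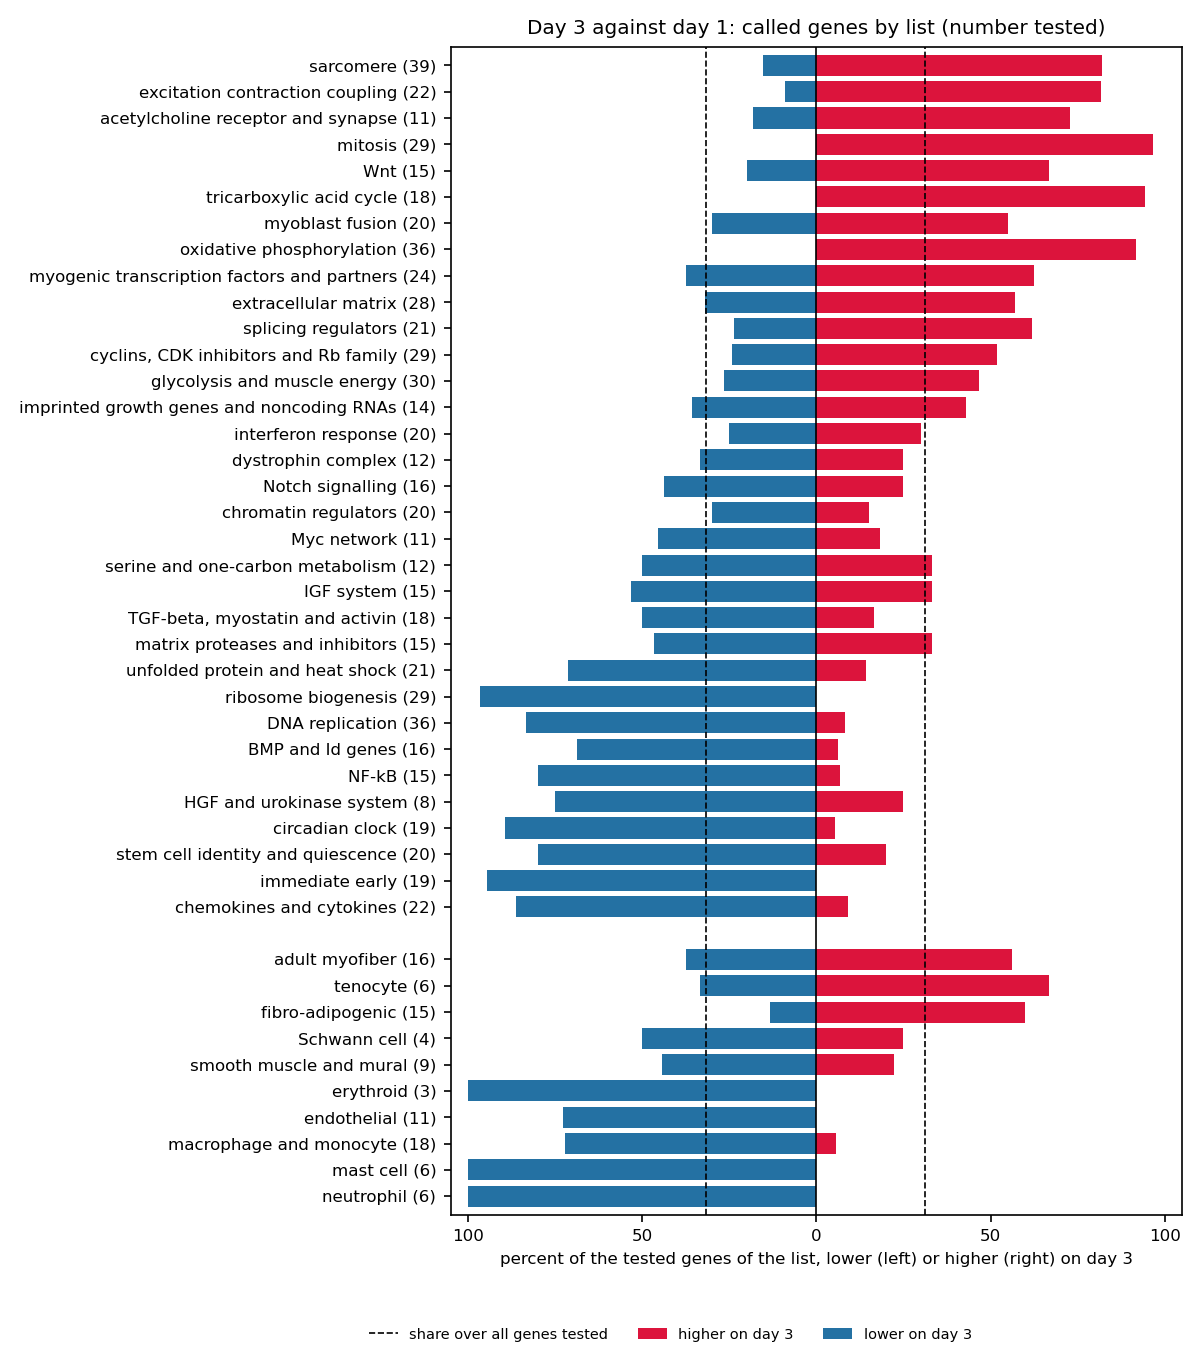
Percent of the tested genes of each list that were called higher on day 3 (red, to the right) or lower on day 3 (blue, to the left), with the number tested in brackets, pathway lists above and cell type marker lists below. The dashed lines mark the shares over all tested genes, 31.2% higher and 31.6% lower. Mitosis reaches 28 of 29 genes on the higher side, and ribosome biogenesis 28 of 29 on the lower side.

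Genes of stem cell identity and quiescence were mostly lower on day 3 than on day 1. Of 20 tested, 16 fell and 4 rose. Pax7 measured 17.9, 21.8 and 28.9 CPM on day 3, 41.7, 56.1 and 77.5 CPM on day 1 and 296 to 359 CPM in uninjured cells. The 3 states did not overlap, and the log2 fold change between the days was -1.35 ± 0.11. Cd34, a surface sialomucin of resting satellite cells, measured 24.6, 43.1 and 47.6 CPM on day 3 and 434, 467 and 509 CPM on day 1, with 621 to 719 CPM in uninjured cells, and fell by 3.56 ± 0.11. Its day 1 libraries lay nearer to the uninjured ones than to those of day 3. Chrdl2, a secreted antagonist of bone morphogenetic proteins, fell by 4.83 ± 0.24, and Calcr, the calcitonin receptor that holds satellite cells in quiescence, by 2.94 ± 0.25. Sdc4 (syndecan 4) and Foxo1 (a transcription factor restrained by insulin signalling) fell by 2.07 ± 0.08 and 1.77 ± 0.11. The list's risers were Cdkn1c, Cdh15 (M-cadherin), Itga7 (integrin alpha 7) and Gas1. Cdkn1c, an inhibitor of cyclin-dependent kinases, is also a gene of differentiating muscle, and Cdh15 stands in the fusion list too.

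The Notch pathway, which keeps satellite cells undifferentiated through contact between cells, went both ways. Of 16 genes tested, 4 rose and 7 fell. Among the ligands, Dll1 measured 103 ± 6.56 CPM on day 3 and 29.8 ± 4.80 CPM on day 1 (SD, n = 8 each) and rose by 1.80 ± 0.08, whereas Jag1 fell by 1.89 ± 0.17 and Dll4, at 0.340 ± 0.421 CPM on day 3, fell by 3.18 ± 0.55. Among the receptors, Notch2 fell by 1.16 ± 0.09 and Notch3 by 0.64 ± 0.16, and Notch1 had a log2 fold change of 0.21 ± 0.10 that did not pass. The nuclear partner Rbpj fell by 0.57 ± 0.06. Targets went different ways, with Nrarp rising by 1.87 ± 0.25, Hes1 by 0.50 ± 0.12, and Hey1 falling by 0.46 ± 0.10.

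All 24 myogenic transcription factors and partners tested were called, 15 higher and 9 lower. The myogenic regulators changed their order. In TPM, which allow for transcript length, Myog was the highest of these factors on day 3 at 1621 ± 350 TPM, followed by Myod1 at 619 ± 46.0, Myf5 at 40.9 ± 11.1 and Pax7 at 6.44 ± 1.3 TPM (SD, n = 8). On day 1, Myod1 was the highest at 1018 ± 61.6 TPM, followed by Myf5 at 136 ± 26.7, Pax7 at 16.4 ± 3.56 and Myog at 9.97 ± 7.35 TPM (SD, n = 8), where the last pair did not differ beyond their spread. Myod1 fell by 0.71 ± 0.05 in CPM and Myf5 by 1.72 ± 0.17. Among the partners of these factors, Tead4, which binds muscle gene promoters, rose by 4.12 ± 0.22 and Hes6, a repressor of Hes1, by 2.58 ± 0.08. Mef2a, Mef2c and Mef2d, which act together with the myogenic regulators, rose by 2.14 ± 0.10, 1.59 ± 0.25 and 0.80 ± 0.06. Tcf12, their E-protein dimer partner, rose by 1.29 ± 0.07 and Klf5 by 1.76 ± 0.11. The Id proteins, which sequester E-proteins, were lower on day 3, Id1 by 0.97 ± 0.08, Id3 by 1.29 ± 0.10 and Id2 by 0.15 ± 0.06.

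Of 20 fusion genes, 11 rose and 6 fell. Mymk measured 205, 276 and 482 CPM on day 3 and 0, 0.584 and 1.53 CPM on day 1, with 24.2 to 85.2 CPM in uninjured cells. Mymx measured 66.4, 86.4 and 158 CPM on day 3, against 0, 0.141 and 0.450 CPM on day 1 and 0.329 to 6.01 CPM in uninjured cells. The uninjured cells thus held more of both transcripts than day 1 cells by their medians, and less than day 3 cells in every library. Myof (myoferlin) and Dysf (dysferlin), membrane repair and fusion proteins, rose by 2.23 ± 0.09 and 1.98 ± 0.27. The cadherins Cdh2 and Cdh15 rose by 1.54 ± 0.07 and 1.06 ± 0.11, and the tetraspanin Cd81 by 0.90 ± 0.05, whereas its relative Cd9 fell by 0.37 ± 0.06. Rac1 and Dock1 did not pass the test.

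Sarcomere genes had the highest median of all lists. Of 39 tested, 32 rose, all at least 2-fold, and 6 fell, while Des (desmin), already at 1056 ± 76.6 CPM on day 1, was at 1113 ± 100 CPM on day 3 and did not pass. Ttn (titin) rose by 5.13 ± 0.15, Smyd1 and Unc45b, which assemble myosin, by 5.75 ± 0.26 and 4.60 ± 0.20, and Tpm1 (tropomyosin 1) by 1.92 ± 0.07. The 6 that fell were Cryab, Mybpc1, Csrp3, Tcap, Myot and Myoz1, most of them proteins of the Z-disc. Markers of adult fibres, which the toxin kills, were mixed: of 16 tested, 9 rose and 6 fell. Myh4, the adult fast IIb myosin, measured 9.96 ± 8.09 CPM on day 3 and 41.5 ± 24.0 CPM on day 1 (SD, n = 8 each) and fell by 2.07 ± 0.47. Pvalb, Myoz1, Tcap, Mb and Ckm also fell, whereas Acta1, Mylpf and Eno3 rose. The adult fibre markers summed to 3167 to 5225 CPM on day 3 and 312 to 1184 CPM on day 1. That sum includes Eno3 (1673 to 1942 CPM on day 3) and Acta1 (536 to 1503 CPM on day 3). The part of adult fibres in the sarcomere result was not tested.

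Genes that couple excitation to contraction rose with the sarcomere. Of 22 tested, 18 rose and 2 fell. Ryr1, the calcium release channel of skeletal muscle, rose by 3.13 ± 0.15, whereas its relative Ryr3 fell by 2.17 ± 0.29. Stac3, Cacng1 and Cacnb1, which build the voltage sensor with its pore Cacna1s, rose by 3.45 ± 0.20, 3.40 ± 0.15 and 3.25 ± 0.22, and Casq2, the calcium store protein, by 5.41 ± 0.30. Atp2a1, the fast muscle calcium pump, rose by 2.20 ± 0.25, and Atp2a2, its slow and general relative, did not pass.

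Of 11 acetylcholine receptor and synapse genes, 8 rose and 2 fell. The receptor of uninnervated muscle is built of alpha, beta, gamma and delta subunits. Chrng, located at chr1:87204657-87212694 (GRCm38, plus strand), measured 132, 179 and 256 CPM on day 3 and 0.405, 1.22 and 3.69 CPM on day 1, with at most 2.79 CPM in uninjured cells. The other subunits were present already on day 1: Chrna1 stood at 389 ± 32.8 TPM on day 3 and 101 ± 11.2 TPM on day 1, Chrnd at 110 ± 11.8 and 12.8 ± 2.77 TPM, and Chrnb1 at 148 ± 8.96 and 169 ± 11.4 TPM, in the same order of days (SD, n = 8 each). Thus on day 1 the gamma subunit, at 1.48 ± 0.795 TPM, was the lowest of the 4, and on day 3, at 119 ± 26.0 TPM, it was level with the delta subunit within their spread. Dok7, which activates the synapse organizer Musk, rose by 3.26 ± 0.15, and Agrn (agrin) fell by 0.76 ± 0.15. The promoter of Chrng, a classic model of muscle transcription, carries 2 E-boxes, the kind of site that myogenic regulators bind, in the form CAGCTG. RefSeq's GRCm38.p6 promoter at chr1:87205561-87205860 (plus strand, 250 bases before to 50 after RefSeq's gene start) is printed below with these letters in capitals, 155 and 132 bases before that start. RefSeq's start lies inside the interval given above for Chrng, so the distances do not hold for the start of that interval.
Chrng promoter: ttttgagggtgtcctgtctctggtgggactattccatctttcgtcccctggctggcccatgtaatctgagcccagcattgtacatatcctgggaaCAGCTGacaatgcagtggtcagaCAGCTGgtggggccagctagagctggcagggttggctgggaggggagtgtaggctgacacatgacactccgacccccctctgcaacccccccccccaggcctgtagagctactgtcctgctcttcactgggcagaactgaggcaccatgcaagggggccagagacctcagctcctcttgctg
CAGCTG, searched on both strands, was present in 16.1% of 27025 RefSeq promoters of this length, in 12 of 30 sarcomere promoters (40.0%), in 6 of 13 for excitation-contraction coupling (46.2%), in 4 of 8 for the acetylcholine receptor and synapse (50.0%) and in 3 of 24 for mitosis (12.5%). Lists of other cells and of other roles held it as well: 6 of 9 fibro-adipogenic (66.7%), 7 of 12 adult myofiber (58.3%), 3 of 6 smooth muscle (50.0%), 5 of 12 macrophage (41.7%), 4 of 15 myogenic factor (26.7%) and 0 of 7 dystrophin complex promoters. A match of these letters is a description and not evidence of binding.

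The dystrophin complex, which ties the cytoskeleton to the matrix, did not move as a group: of 12 genes 3 rose and 4 fell. Dmd (dystrophin) itself was lower on day 3, at 7.31, 7.77 and 8.52 CPM, against 35.0, 65.7 and 75.5 CPM on day 1 and 182 to 363 CPM in uninjured cells. It fell by 2.98 ± 0.14. Dtna (dystrobrevin) rose by 1.26 ± 0.15 and Sgcb (sarcoglycan beta) by 0.88 ± 0.07, whereas Sgca fell by 0.92 ± 0.11. Dag1, Utrn and Sspn did not pass.

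Genes of the cell cycle moved in opposite directions by phase. Mitosis genes were higher on day 3: of 29 tested, 28 rose, 20 of them at least 2-fold, and Aurkb did not pass. DNA replication genes were lower: of 36 tested, 30 fell and 3 rose (Rrm2, Rrm1 and Tk1, which supply deoxynucleotides), with 1 fall of at least 2-fold (Orc1). Ccnb2 (cyclin B2), which drives entry into mitosis, measured 190, 212 and 223 CPM on day 3 and 13.3, 22.8 and 31.6 CPM on day 1, and rose by 3.26 ± 0.12. Cdc20, the activator of the anaphase-promoting complex, measured 325, 382 and 420 CPM on day 3 and 39.0, 78.1 and 99.2 CPM on day 1, a rise of 2.38 ± 0.13. Nusap1, Bub1b and Ect2, which act on spindle, checkpoint and cytokinesis, rose by 1.99 ± 0.10, 1.65 ± 0.08 and 1.62 ± 0.09. Against these, Mcm3, a subunit of the replicative helicase, measured 293, 325 and 366 CPM on day 3 and 484, 591 and 621 CPM on day 1, and fell by 0.81 ± 0.05. Pcna, the sliding clamp, measured 216, 241 and 282 CPM on day 3 and 406, 462 and 515 CPM on day 1, and fell by 0.89 ± 0.06. Both days were above the uninjured state for this pair, where Mcm3 was 25.8 to 54.4 CPM and Pcna 43.1 to 96.4 CPM. Without the 4 day 3 libraries that stood apart, 27 mitosis genes rose and 27 replication genes fell.

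Regulators of the cycle changed on both sides. Of 29 cyclins, kinase inhibitors and Rb family genes, 15 rose and 7 fell. Cdkn1c (p57) measured 369, 577 and 734 CPM on day 3, 3.07, 7.20 and 12.1 CPM on day 1 and 97.3 to 606 CPM in uninjured cells, and rose by 6.28 ± 0.24. Cdkn1a (p21) measured 893, 950 and 1162 CPM on day 3 and 120, 164 and 210 CPM on day 1, with at most 98.4 CPM in uninjured cells, and rose by 2.59 ± 0.08. The day 3 and uninjured ranges of Cdkn1c overlapped, and those of Cdkn1a did not. Rb1, the retinoblastoma protein that holds E2F factors in check, rose by 1.73 ± 0.14, as did the repressive E2f8 by 1.90 ± 0.09. E2f1 fell by 1.11 ± 0.10 and Ccnd1 (cyclin D1) by 0.72 ± 0.08, whereas Ccne1 (cyclin E1) rose by 1.06 ± 0.08. Other E2F genes went both ways without overlap between the days. E2f2 measured 150.7 to 188.0 CPM on day 3 and 55.02 to 87.25 CPM on day 1. E2f4 measured 210.9 to 272.1 CPM on day 3 and 161.1 to 202.3 CPM on day 1, while E2f5 and E2f6 were lower on day 3. Cdkn1b, Cdk2 and Trp53 did not pass.

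Promoters of the mitosis genes share a sequence that those of the replication genes mostly lack. TTTGAA, the core of the cell cycle homology region that represses late cell cycle genes in resting cells, was in 18 of 24 mitosis promoters (75.0%), in 4 of 29 replication promoters (13.8%) and in 18.1% of all. The next highest share of any list was 3 of 7 dystrophin complex promoters (42.9%). The promoters of Ccnb2 (chr9:70421505-70421804, minus strand) and Cdc20 (chr4:118437294-118437593, minus strand), from RefSeq on GRCm38.p6, are shown with TTTGAA in capitals; it starts 18 bases before the gene start of Cdc20, and 167 bases before and 4 bases after that of Ccnb2.
Ccnb2 promoter: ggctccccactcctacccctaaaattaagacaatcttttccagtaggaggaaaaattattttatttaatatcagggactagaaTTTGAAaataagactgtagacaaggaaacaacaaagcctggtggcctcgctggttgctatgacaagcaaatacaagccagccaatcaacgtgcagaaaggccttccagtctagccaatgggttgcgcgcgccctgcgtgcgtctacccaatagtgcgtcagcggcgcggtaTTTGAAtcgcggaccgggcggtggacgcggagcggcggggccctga
Cdc20 promoter: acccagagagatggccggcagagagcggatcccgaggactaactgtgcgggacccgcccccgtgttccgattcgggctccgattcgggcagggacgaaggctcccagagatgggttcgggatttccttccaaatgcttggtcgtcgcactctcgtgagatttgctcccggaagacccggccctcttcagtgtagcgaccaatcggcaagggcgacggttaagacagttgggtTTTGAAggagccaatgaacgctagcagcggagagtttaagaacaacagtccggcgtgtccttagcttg
Of the E2F motifs, TTTCGCGC was in 0.318% of all promoters and in 5 of 29 replication promoters (17.2%), and GGCGGGAA in 2.24% of all and in 6 of 29 (20.7%).

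**Figure D3:**
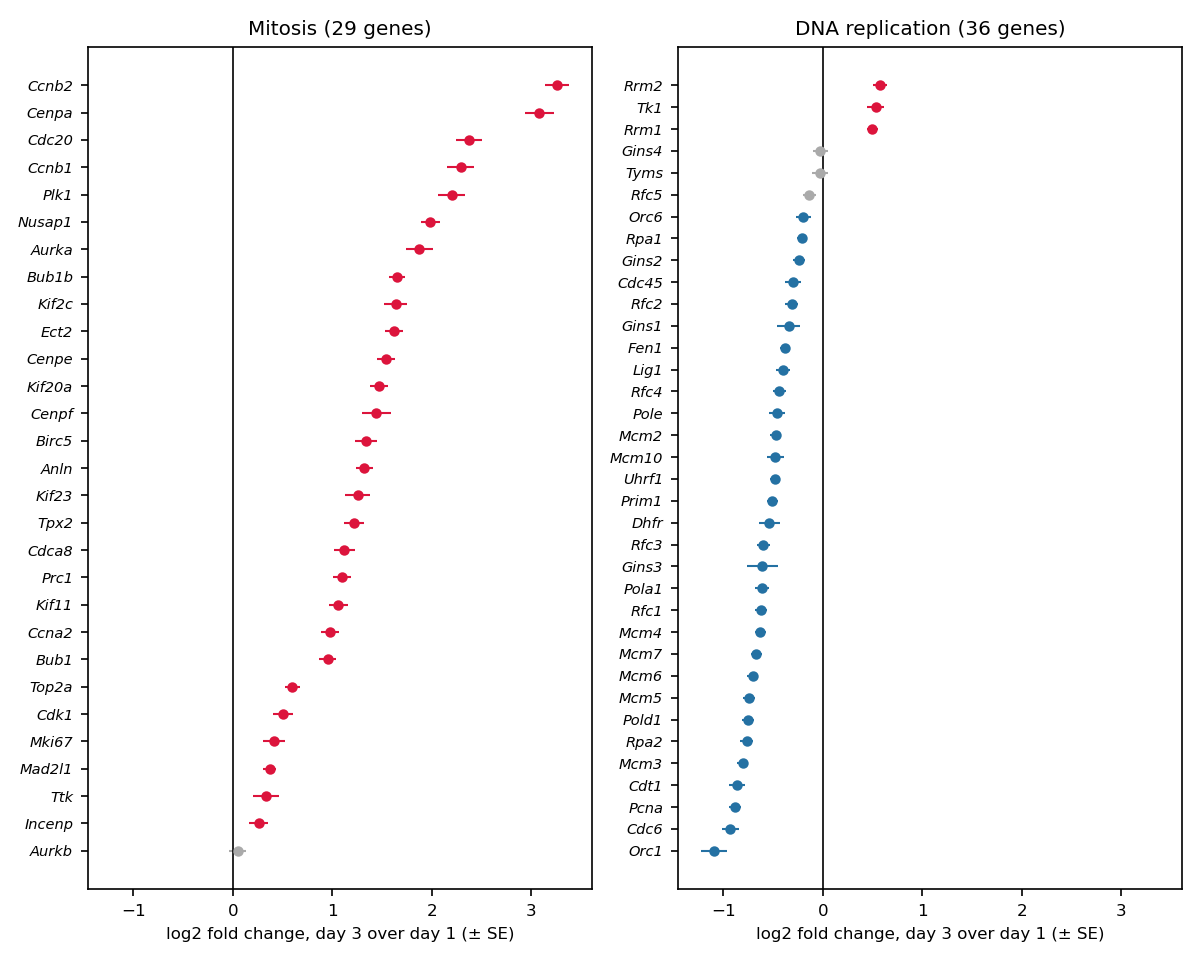
Log2 fold change of day 3 over day 1 with its standard error for each tested gene of the mitosis list (29 genes) and the DNA replication list (36 genes), coloured by whether and in which direction the gene was called. Mitosis genes lie to the right of 0, from Aurkb at 0.05 to Ccnb2 at 3.26, and replication genes mostly to the left, down to Orc1 at -1.09.

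Genes of ribosome production were lower on day 3. Of 29 ribosome biogenesis genes, 28 fell and 1, Dkc1, did not pass. The falls were small, with a median of -0.47. Ncl (nucleolin) measured 1553, 1605 and 1933 CPM on day 3 and 2178, 2493 and 2665 CPM on day 1, with 427 to 561 CPM in uninjured cells, and fell by 0.56 ± 0.05. Noc2l fell by 1.38 ± 0.07 and Polr1b, a subunit of RNA polymerase I, by 0.91 ± 0.07. Without the 4 day 3 libraries that stood apart, 23 of these genes fell. Myc, which drives ribosome genes, measured 115, 194 and 200 CPM on day 3 and 456, 554 and 646 CPM on day 1, and fell by 1.59 ± 0.10. Its relative Mycl went the other way, at 35.5, 42.6 and 61.1 CPM on day 3 and 0.137, 1.36 and 3.69 CPM on day 1, a rise of 4.97 ± 0.28. Over the 11 genes of the Myc network, 2 rose and 5 fell, and 4 rose when day 1 ZT16 replicate 2 was left out.

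Mitochondrial energy genes were higher on day 3. Of 36 genes of oxidative phosphorylation, 33 rose and none fell, and of 18 genes of the tricarboxylic acid cycle, 17 rose and none fell, against 31.2% of all genes higher. These changes were mostly under 2-fold, with medians of 0.66 and 0.72. Atp5o, a stalk subunit of ATP synthase, measured 486, 512 and 548 CPM on day 3 and 195, 212 and 260 CPM on day 1, and rose by 1.25 ± 0.05. Sdhb of complex II and Uqcrc1 of complex III rose by 1.00 ± 0.05 and 0.94 ± 0.04. In the cycle, Idh3a, Suclg1, Pdhb and Pdha1 rose by 1.18 ± 0.05, 1.09 ± 0.05, 1.08 ± 0.05 and 1.02 ± 0.04. The 3 respiratory genes that did not pass were Ndufa1 and the heart and muscle forms Cox8b and Cox6a2.

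Genes of glycolysis and muscle energy summed to 19520 to 22260 CPM on day 3 and 13000 to 15560 CPM on day 1, without overlap. Of 30 tested, 14 rose and 8 fell. The general enzymes Tpi1 (triosephosphate isomerase) and Pgk1 (phosphoglycerate kinase) rose by 1.08 ± 0.05 and 0.78 ± 0.05. Eno3, the muscle enolase, measured 1673, 1799 and 1942 CPM on day 3 and 40.9, 68.0 and 86.1 CPM on day 1, and rose by 4.78 ± 0.10. The general enolase Eno1 rose by 0.93 ± 0.05. In TPM, Eno3 stood at 1893 ± 153 on day 3 and 72.2 ± 18.6 on day 1, and Eno1 at 3896 ± 144 on day 3 and 2020 ± 103 on day 1 (SD, n = 8 each), so Eno1 remained the higher form on both days. Pgam2, the muscle phosphoglycerate mutase, rose by 2.37 ± 0.27, whereas Pgam1 did not pass. Ckb (brain creatine kinase) rose by 2.79 ± 0.14 and the muscle forms Ckm and Ckmt2 fell by 0.84 ± 0.34 and 3.56 ± 0.40. Pkm (pyruvate kinase) rose by 0.36 ± 0.04. Hk2, Pfkfb3 and Slc2a1, which take up and commit glucose, fell by 1.24 ± 0.14, 1.50 ± 0.12 and 0.45 ± 0.10. In serine and one-carbon metabolism, 4 of 12 rose and 6 fell: Phgdh and Psat1, which make serine, rose by 0.84 ± 0.07 and 0.78 ± 0.06, and Shmt1 and Mthfd1, which pass its carbon to folate, fell by 0.87 ± 0.07 and 0.70 ± 0.05.

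Inflammatory signals were lower on day 3. Of 22 chemokines and cytokines, 19 fell, all at least 2-fold, and 2 rose. Ccl2, which draws in monocytes, measured 5.68, 25.4 and 39.0 CPM on day 3 and 170, 320 and 508 CPM on day 1, and fell by 3.63 ± 0.30. Cx3cl1 and Cxcl12, which stood at 53.2 and 65.9 CPM on average in uninjured cells, fell by 3.40 ± 0.14 and 1.81 ± 0.08, and Csf1, the growth factor of macrophages, by 1.60 ± 0.09. Il33, an alarmin that acts on regulatory T cells, went the other way, with 37.2, 42.0 and 49.2 CPM on day 3 and 1.22, 3.40 and 6.83 CPM on day 1, a rise of 3.62 ± 0.19. The other riser, Cxcl10, at 0.68 ± 0.28, was no longer called when any 1 of 7 libraries was left out (day 3 ZT4 replicates 3 and 4, day 3 ZT16 replicate 2, day 1 ZT4 replicates 2 and 4, day 1 ZT16 replicates 2 and 3). Of 18 macrophage and monocyte markers, 13 fell and Lgals3 (galectin 3) rose by 1.65 ± 0.11. Itgam (CD11b) measured 1.94, 8.19 and 11 CPM on day 3 and 54.7, 89.6 and 163 CPM on day 1, and fell by 3.62 ± 0.29, whereas the complement genes C1qa, C1qb and C1qc of resident macrophages did not pass. All 6 tested neutrophil markers and all 6 tested mast cell markers fell, and so did 8 of 11 endothelial markers. The part of these cells in the chemokine result was not tested.

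NF-kB and stress response genes were mostly lower on day 3. Of 15 NF-kB genes, which switch on many chemokines, 12 fell and Traf1 rose by 1.38 ± 0.14. Ikbke, Birc3 and Rela fell by 2.24 ± 0.25, 1.48 ± 0.16 and 0.51 ± 0.06. Interferon response genes did not move as a group: of 20, 6 rose and 5 fell, and 3 fell without the 4 day 3 libraries that stood apart. Rsad2 (viperin), which limits virus growth, rose by 1.83 ± 0.17 and Irf1 fell by 0.83 ± 0.15. Of 21 genes of the unfolded protein and heat shock response, 15 fell and 3 rose. Atf4, the regulator of the integrated stress response, and Hspa8 (Hsc70) fell by 0.83 ± 0.09 and 0.57 ± 0.05, and Hsp90b1, the chaperone of the endoplasmic reticulum, rose by 0.54 ± 0.04. Hspa1a and Hspa1b fell by 2.62 ± 0.25 and 2.39 ± 0.23, but are near-identical copies whose reads may be split between them.

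Immediate early genes, which respond to stimulation within minutes, were lower on day 3: of 19 tested, 18 fell and Klf6 did not pass. Ier3, Ier2 and Fosl1 fell by 2.68 ± 0.25, 1.04 ± 0.12 and 0.68 ± 0.09 with no overlap between the days. For Fos the days did overlap, at 269, 694 and 901 CPM on day 3 and 446, 3458 and 4309 CPM on day 1. The low value belonged to day 1 ZT16 replicate 4, and the other 7 day 1 libraries measured 3074 CPM or more. The whole list summed to 3833 CPM in that library, inside the day 3 range of 2317 to 5415 CPM, against 13600 to 18340 CPM in the other 7, and the 3 genes without overlap were the only ones of the 19. In uninjured cells Fos spanned 201 to 20440 CPM.

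Growth factor systems were mixed. Of 15 IGF genes, 5 rose and 8 fell. Besides Igfbp2, the binding proteins Igfbp5 and Igfbp6 rose by 1.70 ± 0.10 and 2.18 ± 0.16, and the ligand Igf1 by 1.71 ± 0.22, whereas the receptors Igf1r and Insr fell by 0.46 ± 0.12 and 0.81 ± 0.16. Of 8 genes of the HGF and urokinase system, 6 fell and 2 rose: the protease Plau and its receptor Plaur fell by 2.68 ± 0.21 and 1.20 ± 0.10, while the protease inhibitor Serpine2 rose by 1.51 ± 0.11. Among 14 imprinted growth genes, 6 rose and 5 fell. Mest measured 1019, 1097 and 1561 CPM on day 3 and 32.4, 58.6 and 91.7 CPM on day 1, a rise of 4.33 ± 0.16. The noncoding H19 rose by 2.46 ± 0.18 and Grb10, an adaptor that dampens insulin signalling, by 1.87 ± 0.07, whereas Dlk1 fell by 3.28 ± 0.26 and its noncoding neighbour Meg3 by 1.86 ± 0.15.

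BMP genes were lower on day 3. Of 16 BMP and Id genes, 11 fell and 1, Bmpr2, rose, and none rose without the 4 day 3 libraries that stood apart. Bmp4 measured 2.65, 4.72 and 7.01 CPM on day 3, 121, 152 and 186 CPM on day 1 and 348 to 658 CPM in uninjured cells. The 3 states did not overlap, and the log2 fold change between the days was -4.92 ± 0.14 (edgeR adjusted p = 1.72e-15). Bmp6 fell by 3.67 ± 0.21. Of 18 genes of the TGF-beta, myostatin and activin axis, 9 fell and 3 rose. The coreceptor Tgfbr3 fell by 3.21 ± 0.20 and Fstl3, which binds activins, by 1.76 ± 0.15, while Fst (follistatin) rose by 1.95 ± 0.40. Wnt genes moved the other way, with 10 of 15 higher and 3 lower. Sfrp2, a secreted Wnt modulator, rose by 5.85 ± 0.19, and the ligands Wnt10a and Wnt9a by 3.41 ± 0.17 and 2.42 ± 0.20. Tcf7l2, a nuclear effector, rose by 1.01 ± 0.09, while the receptors Fzd1 and Fzd4 fell by 1.01 ± 0.12 and 1.03 ± 0.14.

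The extracellular matrix changed its make-up. Of 28 genes, 16 rose and 9 fell, and 13 rose without the 4 day 3 libraries that stood apart. Fibrillar collagens rose: Col1a1 measured 300, 392 and 865 CPM on day 3 and 5.68, 10.3 and 15.5 CPM on day 1, a rise of 5.44 ± 0.25, and Col1a2 rose by 5.47 ± 0.18. The laminin chain Lama5 rose by 2.41 ± 0.11. Of the basement membrane collagens, Col4a1 and Col4a2 fell by 2.12 ± 0.10 and 1.93 ± 0.10, whereas Col18a1 rose by 2.20 ± 0.12. The laminin chain Lama2 fell by 1.21 ± 0.11. Tnc (tenascin C), a matrix protein of injury, measured 36.2, 54.0 and 116 CPM on day 3 and 523, 586 and 644 CPM on day 1, with 29.8 CPM or less in uninjured cells, and fell by 3.32 ± 0.13. Of 15 fibro-adipogenic markers tested 9 rose and 2 fell. They summed to 2331 to 4824 CPM on day 3 and 1027 to 1815 CPM on day 1. That sum includes Col1a1, Col1a2 and Col3a1, and a sum without these collagens was not taken. Col3a1 alone measured 1003 to 2187 CPM on day 3 and 368.8 to 654 CPM on day 1. The fibro-adipogenic markers Gsn and Dpt were lower on day 3, without overlap. Gsn measured 243.5 to 365.1 CPM on day 3 and 433.5 to 1005 CPM on day 1. Dpt measured 3.968 to 18.95 CPM on day 3 and 20.09 to 64.16 CPM on day 1. Pdgfra, the defining receptor of these cells, measured 14.1 ± 6.83 CPM on day 3 and 5.09 ± 3.51 CPM on day 1 (SD, n = 8 each) and rose by 1.52 ± 0.35. The part of these cells in the collagen result was not tested. Scx, a tendon regulator, rose by 2.52 ± 0.10, and Chodl, also strong in uninjured stem cells, fell by 4.82 ± 0.33; of 6 tenocyte markers 4 rose and 2 fell, or 1 without day 1 ZT16 replicate 1. Among 9 smooth muscle and mural markers 2 rose and 4 fell, led by Tagln, which fell by 3.07 ± 0.13. Among the 4 Schwann cell markers tested, Ngfr rose by 2.5 ± 0.24, and Mbp and Mag fell by 1.51 ± 0.24 and 0.73 ± 0.31. The call of Mag was lost when any 1 of 13 libraries was left out, all but day 3 ZT4 replicate 2, day 3 ZT16 replicate 4 and day 1 ZT16 replicate 3. Of 15 matrix proteases and inhibitors, 5 rose and 7 fell, with Mmp15 higher by 2.18 ± 0.16 and Adam12 lower by 2.77 ± 0.16.

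Clock genes were lower on day 3 than on day 1 over both injury times. Of 19 tested, 17 fell and Arntl (Bmal1) rose, by 0.49 ± 0.17, a call that was lost without day 3 ZT4 replicate 4. Dbp, a direct output of the clock, measured 3.09, 5.10 and 6.88 CPM on day 3, 36.9, 49.9 and 72.3 CPM on day 1 and 124 to 322 CPM in uninjured cells, and fell by 3.35 ± 0.14. Nr1d1 (Rev-erb alpha), Per3 and Tef fell by 1.57 ± 0.11, 2.21 ± 0.18 and 1.25 ± 0.08. Without the 4 day 3 libraries that stood apart, 14 fell. The E-box CACGTG was in 5 of 16 promoters of the list (31.2%) and in 7.24% of all, and more often in the promoters of the Myc network (4 of 10, 40.0%) and the IGF system (5 of 14, 35.7%).

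Of 20 chromatin regulators, 3 rose and 6 fell, both under the shares over all genes. Hdac5, a class IIa deacetylase that restrains Mef2 factors, rose by 1.43 ± 0.10, while Hdac4 of the same class fell by 0.61 ± 0.09 and Dnmt1, the maintenance DNA methyltransferase, by 0.50 ± 0.06. Splicing regulators rose more often, with 13 of 21 higher and 5 lower. Rbm24 and Rbm38, which promote exons of muscle transcripts, rose by 3.36 ± 0.18 and 1.72 ± 0.10, and Rbfox2 by 0.78 ± 0.06. Ptbp1, which represses muscle exons, fell by 1.50 ± 0.07, and its relative Ptbp2 rose by 0.97 ± 0.07.

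Transcript shares, the percent of a gene's output that RSEM assigned to each transcript, were called as different between the days in a minority of genes. In simulated shares, shifts of 20 points were recovered in 50.7% of changed genes, so shares that were not called may also have changed. Of 11529 transcripts from 4555 genes, 596 (5.17%) were called by limma on arcsine-transformed shares with Benjamini-Hochberg adjustment, in 411 genes (9.02%). On the same transcripts edgeR's diffSpliceDGE called 150, of which 115 were among the 596. With shares taken from expected counts 605 of 9273 transcripts were called, of which 413 were among the 596. With the replicate number fitted as a block, 308 transcripts were called, of which 289 were among the 596. Of the called transcripts, 311 had a larger and 285 a smaller share on day 3, 230 changed by at least 20 percentage points and 213 did not overlap between the days. Without the 4 day 3 libraries that stood apart, 286 were called. In a list of 50 genes known for muscle isoforms, 36 could be tested and 18 had a called transcript. Transcripts are named as in GENCODE.

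Contractile and Z-disc genes were among those that switched. Tnnt3-215, of fast troponin T, held 28.8 ± 5.28% of the gene on day 3 and 0.819 ± 1.14% on day 1 (SD, n = 8 each; limma adjusted p = 3.86e-06). Ldb3-203 (Cypher, a Z-disc protein) held 28.4 ± 8.09% on day 3 and 71.8 ± 6.14% on day 1. Pdlim7-203 held 64.5 ± 3.92% on day 3 and 25.5 ± 7.71% on day 1, and its relative Pdlim5-201 36.1 ± 7.0% on day 3 and 65.3 ± 6.81% on day 1. In none of these did the libraries of the 2 days overlap. Dmd-201, of dystrophin, held 59.9 ± 15.1% on day 3 and 23.5 ± 6.20% on day 1, while the gene as a whole fell. Its day 3 values were split by injury time, at 40.67 to 51.47% for ZT4 and 60.89 to 84.04% for ZT16. Rbfox2-202, of a splicing regulator, held 46.6 ± 5.22% on day 3 and 5.81 ± 10.8% on day 1, and Fn1-217 of fibronectin 5.93 ± 8.26% on day 3 and 31.6 ± 4.34% on day 1. Tnnt2-205 held 39.2 ± 9.82% on day 3 and 13.2 ± 26.8% on day 1, where the gene had few reads and the days overlapped.

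Beyond that list, the 10 genes with the largest changes were Gcnt1, Epb41l3, Ak4, Sphk2, Scrib, Vps8, Rin3, Il33, Map4k5 and Asb2. Sphk2-202, of sphingosine kinase 2, held 36.1 ± 8.99% on day 3 and 91.0 ± 6.02% on day 1. Scrib-205, of the polarity protein Scribble, held 55.7 ± 7.95% on day 3 and 1.65 ± 2.51% on day 1. Vps8-208, of the gene of a vacuolar sorting protein, held 56.2 ± 8.29% on day 3 and 2.62 ± 3.26% on day 1. It is annotated as a processed transcript and not as protein-coding. The protein-coding Vps8-204 held 30.06 ± 6.97% on day 3 and 67.55 ± 14.4% on day 1. Asb2-201, of a ubiquitin ligase subunit that acts in muscle differentiation, held 73.4 ± 7.40% on day 3 and 25.5 ± 21.5% on day 1. Its day 1 values were split by injury time, at 27.78 to 58.87% for ZT4 and 5.27 to 10.03% for ZT16. The libraries of the 2 days did not overlap for any of these transcripts. For Gcnt1-201, Epb41l3-201 and Ak4-202 the shares ranged from 0 to 100, 100 and 80.4% among day 1 libraries, and the days overlapped.

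In tropomyosin and Mef2a, transcripts whose shares changed differ in short coding exons, among other parts. Tpm2-202 has 2098 bases and Tpm2-203 has 1164. One difference between them is a pair of exons of 76 bases each that exclude one another. The shares are estimates for whole transcripts, and which part of a transcript set them was not tested. The exon of Tpm2-202 lies at chr4:43518644-43518719 and that of Tpm2-203 at chr4:43519003-43519078 (GRCm38, minus strand), and capitals mark the 35 positions at which they differ.
Tpm2-202 exon: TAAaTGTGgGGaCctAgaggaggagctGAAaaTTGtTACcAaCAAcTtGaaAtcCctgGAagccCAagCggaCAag
Tpm2-203 exon: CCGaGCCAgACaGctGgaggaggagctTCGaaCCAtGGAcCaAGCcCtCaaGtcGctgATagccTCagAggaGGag
In the rat, the downstream exon of this pair is the skeletal muscle form and the upstream one that of other tissues. Transcripts with the exon of Tpm2-202, the downstream one, made up 50.6 ± 3.43% of the gene on day 3, 27.1 ± 5.80% on day 1 and 51.1 ± 6.57% in uninjured cells, and those with the exon of Tpm2-203 47.0 ± 2.77% on day 3, 68.6 ± 7.03% on day 1 and 46.6 ± 6.26% in uninjured cells (SD, n = 8, 8 and 6). The libraries of day 3 and day 1 did not overlap for either exon. In Mef2a, an exon of 24 bases at chr7:67244521-67244544 (GRCm38, minus strand) is held by 2 of 12 annotated transcripts, and it is the whole of the sequence below.
Mef2a exon: tcggaggaagaggaattggagttg
Transcripts with this exon made up 56.7 ± 6.25% of Mef2a on day 3, 31.9 ± 9.87% on day 1 and 62.9 ± 5.90% in uninjured cells (SD, n = 8, 8 and 6), and their ranges on day 3 and day 1 overlapped, with 50.2% as the lowest value on day 3 and 53.8% as the highest on day 1. In Atp2a1 the exon of 42 bases at chr7:126446545-126446586 (minus strand), which neonatal muscle skips, was held by transcripts at 68.9 ± 4.63% on day 3 and 85.2 ± 7.74% on day 1; the transcript without it, Atp2a1-202, is annotated only as a fragment of 681 bases.

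**Figure D4:**
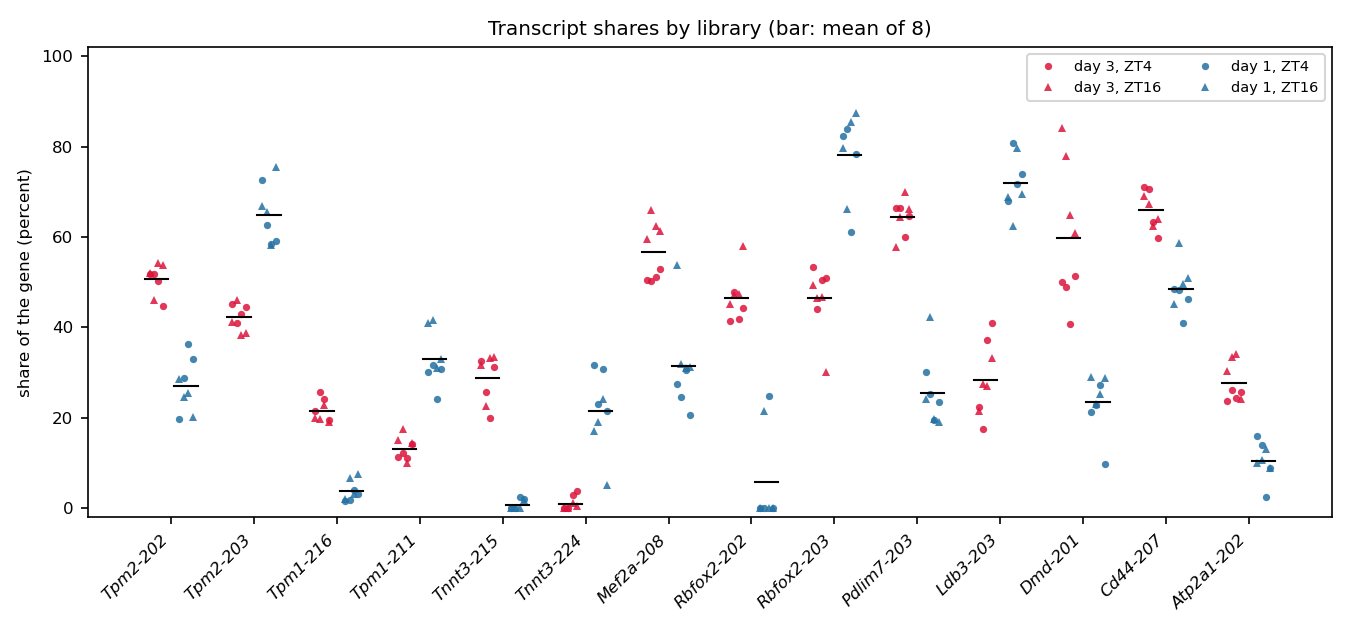
Share of the gene, in percent, held by selected transcripts in each library, with day 3 in red and day 1 in blue, circles for ZT4 and triangles for ZT16. Tnnt3-215 lies between 19.96 and 33.49% on day 3 and at 2.51% or less on day 1, and Ldb3-203 lies between 17.6 and 40.9% on day 3, below its day 1 values of 62.4 to 80.7%.

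Most called genes changed in the same direction at both injury times. At ZT4, 7126 genes (51.1%) were called and at ZT16 6812 (48.8%), and 5513 were called at both times with the same sign. Of the 8771 genes called over both times, 8742 had the same sign at each. For genes, whether the change depended on injury time was tested directly as the difference of the differences. Transcript shares were not tested in this way. By edgeR 0 genes (0.0%) were called, 1176 had an unadjusted p under 0.05 and the smallest adjusted p was 0.12, whereas DESeq2 called 23 and limma-voom 1 on the same libraries. Leaving out day 1 ZT16 replicate 1 gave 7 calls, leaving out day 1 ZT16 replicate 4 gave 4, and leaving out any other library gave 0. The 5 smallest p-values belonged to Sox11, Socs2, Krt18, 9630010A21Rik and Cpne2, each with an edgeR adjusted p of 0.12.

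Sox11, a transcription factor of embryonic precursors, rose by 2.90 at ZT4 and 2.06 at ZT16, a difference of -0.83 ± 0.15 (SE). Krt18, a keratin, rose by 3.81 at ZT4 and 2.47 at ZT16, a difference of -1.34 ± 0.26. Cpne2, a copine, fell by 2.81 at ZT4 and 1.57 at ZT16. Each of these 3 therefore kept its direction at both times. The gene 9630010A21Rik differed in its levels: it measured 0.827 to 2.20 CPM on day 3 and 0.27 to 3.28 CPM on day 1 at ZT4, and 0 to 0.102 CPM on day 3 and 2.13 to 2.93 CPM on day 1 at ZT16. Its groups overlapped at ZT4 and not at ZT16, and with 3 of 4 day 3 libraries at 0 no fold is given for ZT16. Socs2, which dampens growth hormone signalling, had 30.0 to 43.9 CPM on day 3 and 21.2 to 27.5 CPM on day 1 at ZT4, and 27.2 to 33.9 CPM on day 3 and 33.4 to 49.8 CPM on day 1 at ZT16. Its log2 fold change was 0.57 ± 0.14 at ZT4 and -0.52 ± 0.14 at ZT16, both called, with a difference of -1.10 ± 0.20. Only 3 genes were called at both times with opposite signs, Socs2 and, named after their values were seen, Tbc1d8b (0.70 ± 0.27 at ZT4 and -0.67 ± 0.28 at ZT16) and Fmr1 (0.25 ± 0.09 at ZT4 and -0.24 ± 0.09 at ZT16), and none of them passed the test of the difference.

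**Figure D5:**
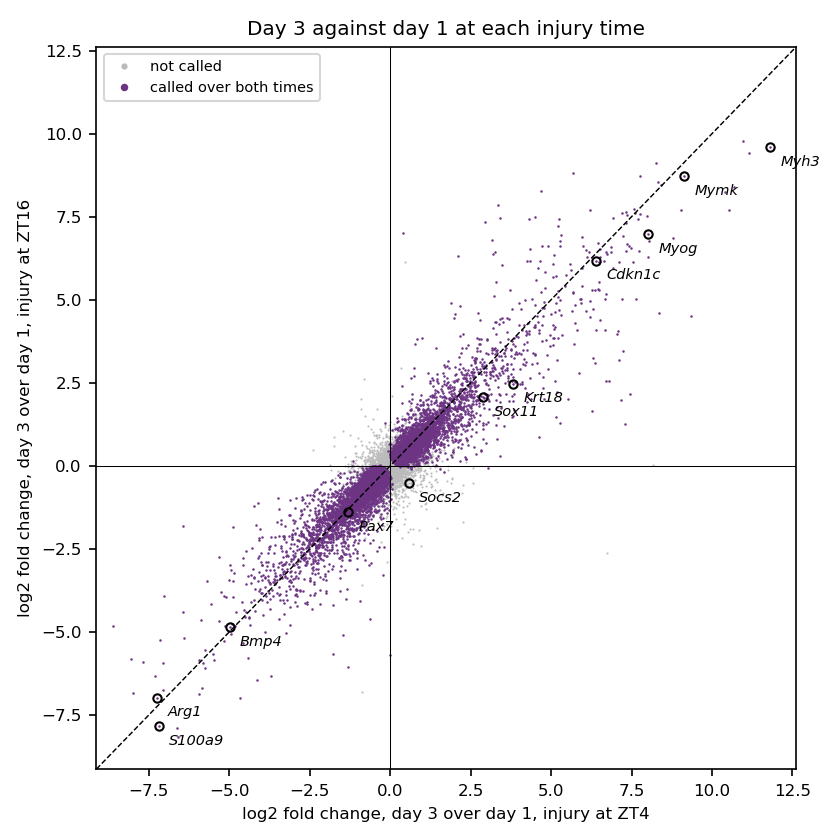
Log2 fold change of day 3 over day 1 at ZT4 (horizontal axis) and at ZT16 (vertical axis) for each of 13952 tested genes, purple where the gene was called over both times, with the line of equality dashed. Points follow the line from Arg1 and S100a9 at the lower left to Mymk and Myh3 at the upper right, and Socs2 lies in the quadrant of opposite signs.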

How the data were processed

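RNA of 22 libraries of sorted Pax7-zsgreen cells was measured, of which the 8 of day 3 and the 8 of day 1 were compared, grouped by title. Per the submitters' processing notes the tools were Trimmomatic 0.33, STAR 2.5.2, RSEM 1.3.3 and DESeq2 with the build mm10; their settings, and whether counting used strand, are not given in the sources used here. The authors' deposited files give, per transcript, an expected count, TPM, the share of the gene in percent, and the effective length in bases. PCR duplicates cannot be told from separate molecules.

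Here expected counts were summed per gene and rounded, genes were kept by edgeR's filter (at least 10 counts, 15 in total), scaled by TMM, and fitted with edgeR 4.0.16 (robust quasi-likelihood, 4 groups of day and time, Benjamini-Hochberg over 13952 genes). CPM uses TMM over all 22 libraries, and SE is the log2 fold change divided by the root of F. Transcript shares were tested with limma 3.58.1 in genes averaging at least 10 CPM (2 CPM on each day) for transcripts averaging at least 10%. On simulated data with 200 changed genes, the gene test recovered 59.7%, 82.1% and 95.5% of 1.5-, 2- and 4-fold changes among 13687 genes. The test of time dependence recovered 13.4%, 52.2% and 80.3% among 13696. In simulated shares, also with 200 changed genes, shifts of 10, 20 and 40 points were recovered in 13.4%, 50.7% and 89.4% of genes.

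IDs matched GENCODE M21 on GRCm38 for 42546 of 43430 genes. Promoters come from RefSeq; of 7 motifs searched in them, 5 are reported. Named genes were the 12 largest changes each way that reached 10 CPM without overlap of the days, up to 4 members of each list with the smallest p, and 7 fixed genes; other genes named in a list were picked for their role after their values were seen. Results of 5 named or listed genes are not reported here. Members and lists were chosen with earlier results of these data known. Same-numbered replicates correlated at -0.027 to 0.17 across days and were not treated as pairs. Alternatives were other scalings, filters, tools and thresholds, and leaving out libraries.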

Additional observations from a re-analysis of the deposited data

Results flagged for a closer look

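In each day's 8 libraries, 539 sets of values were tested for a library whose gap to the next one exceeded Dixon's 95% critical value for 8 values, and 52 held one (9.65%, where chance gives about 1 in 20). Gene levels here are CPM. No explanation of these values was tested.

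On day 3, ZT16 replicate 2 was high in Ncl (1933), Pgam1 (736.9), Rbm24 (104.4, next highest 72.1) and Shmt1 (177.7), and low in Grb10 (456.4) and Sgcb (135). Day 3 ZT16 replicate 3 was high in Actc1 (439.9, next 286), Cdkn1a (1162), Des (1346), Dll1 (118.2) and Mef2d (160.1), genes of the contractile, cell cycle exit and Notch groups. Day 3 ZT16 replicate 1 was high in Chodl (27.96) and Tagln (11.59). Among the day 3 ZT4 libraries, replicate 1 was high in Dll4 (1.25) and Il1f9 (0.7809), replicate 2 in Cyp26a1 (0.6895), replicate 3 in Ccne1 (215), and replicate 4 in Col1a1 (865.2, next 556) and Pvalb (3.505), with low Insr (7.528). Transcript shares on day 3 stood apart for Rbfox2-202 in ZT16 replicate 4 (58.02%), Gcnt1-201 in ZT4 replicate 1 (96.57%) and Fn1-217 in ZT4 replicate 3 (23.8%).

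On day 1, ZT16 replicate 4 held 11 of these values. It was low in the muscle stem cell genes Calcr (7.791, next lowest 22.2), Cdh15 (171.7) and Myf5 (120.4), in the dystrophin complex genes Dag1 (624.3) and Dmd (34.99), in Col3a1 (368.8) and in the immediate early gene Fos (446.5, next lowest 3074) and the summed immediate early genes (3833), and high in Bcas1 (1.503), Cdh2 (108.5) and Cxcl12 (278.4). Day 1 ZT4 replicate 3 was high in the summed macrophage and monocyte markers (4998, next 3079), in Itgam (162.7), Lgals3 (353.3) and Cd9 (297.3), and in the platelet gene Ppbp (75.04). Day 1 ZT16 replicate 2 was high in Myog (25.85, next 12), Chrng (3.693), Ptbp2 (58.19), Dynap (0.382), Smim5 (0.382) and the share of Pdlim7-203 (42.24%), and low in Hk2 (38.33). Day 1 ZT16 replicate 1 was high in Casq2 (3.748) and Chrdl2 (62.51), day 1 ZT4 replicate 2 in Fst (4.367), and day 1 ZT4 replicate 4 in Cox8b (4.484) and the share of Tnnt2-205 (72.96%), with a low share of Dmd-201 (9.81%).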

How the results depend on the processing

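The number of genes called between the days was 8547 to 8912 when single libraries were left out, 8759 with DESeq2's size factors, 8862 with DESeq2's test, 9063 with limma-voom, 8350 with all 22 libraries in the fit, 8271 with offsets from effective length and 9789 with no filter on low counts. A test against a 2-fold change called 1863 (906 higher, 957 lower). The test of time dependence called 175 genes with no filter, 23 with DESeq2, 1 with limma-voom and 0 to 7 when single libraries were left out; the cause was not tested. Transcript shares gave 150 calls with edgeR's diffSpliceDGE, 286 without the 4 day 3 libraries with most genes detected (chosen after seeing the data) and 456 to 570 without single libraries. With the replicate number as a block, 8686 genes and 308 transcripts were called. Whether the numbers pair the samples was not settled. Correlations of equal numbers across days were low, at -0.027 to 0.17, but 5 of 8 numbers correlated best with their own. Of 4992 recomputed fold changes of 192 named genes, 4900 kept their side of the threshold and their sign, 88 were no longer called, mostly against a 2-fold change, and 4 turned sign. These 4 were of Socs2 over both times, which was not called at first (-0.0208 with offsets, -0.0187 to 0.0758 without single libraries, with -0.0141 among them, -0.1134 without the 4 libraries). Of 2236 recomputed list counts, 98 moved by over 1.5 times; besides the cases given with the lists, in the fit of all 22 libraries 2 tenocyte markers and 1 gene of the unfolded protein response were higher. The median over all genes lay between -0.0221 and 0.00823. In simulated data of this depth, spread and number of libraries, a 1.5-fold change was recovered for 59.7% of changed genes. A 10-point shift of share was recovered in 13.4% of changed genes. The spread of the simulated shares was set from 1 transcript per gene over all 16 libraries. It therefore includes differences between the days. Only 200 genes were changed in each simulation, against 8771 genes called here, so the gene rate may not hold for this comparison.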
